A study of Mus musculus with 10 samples.

Results

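The set described here is 9 genes: Prss35, Lhfpl2, Crtc1, Med8, Cdh11, Grb10, Sh3pxd2a, Kdelr3 and Arhgef7. They were chosen from the measured difference between smoke and control lungs on these same arrays, on the side where smoke was higher, so their differences below are a description and were not tested. The array carries 20 probe sets that are annotated to 1 of these 9 symbols alone, out of 34945 probe sets with a single symbol. Of the 20, 16 passed the filter on dim probe sets and 4 did not (1 each of Crtc1, Grb10, Sh3pxd2a and Arhgef7).

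The lungs came from 10 C57BL/6J mice aged 2 weeks, each mouse measured on its own Affymetrix Mouse 430 2.0 array. In the smoke group were 6 mice exposed to cigarette smoke in a chamber together with their mother from the age of 1 day, for 1 h daily over 7 days and then 2 h daily over 7 days, at 90 mg of particulates per cubic metre. The other 4 mice, in filtered air, were the controls. Whole-lung RNA was measured, so a change in the number of cells of a type and a change in RNA per cell cannot be told apart. Sex is unknown in the labels and no litter or array batch is given, so any p-value covers only the spread between these arrays, all of which are separate mice.

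The 9 genes have separate roles. At the cell surface, Cdh11 is a cadherin of mesenchymal cells that joins fibroblasts to each other, and Lhfpl2 belongs to the LHFPL family of tetraspan membrane proteins. Grb10 is an imprinted adaptor that binds the insulin and IGF1 receptors and restrains growth. Arhgef7 (beta-PIX) activates the small GTPases Rac1 and Cdc42 and binds GIT proteins and PAK kinases, and Sh3pxd2a (TKS5) is a Src substrate and the scaffold of podosomes, the actin structures through which cells degrade matrix. Kdelr3 is a receptor that returns escaped endoplasmic reticulum proteins from the Golgi. Prss35 is a secreted protein with the fold of a trypsin-like protease. In the nucleus, Crtc1 is a coactivator of the cAMP-responsive factor CREB, and Med8 is a subunit of the Mediator complex that links transcription factors to RNA polymerase II.

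Promoter sequence, taken from the RefSeq annotation of GRCm38.p6, was found for 6 of the 9 genes. The 250 bases before the start site of the pair that moved together most closely on these arrays, Prss35 and Lhfpl2, and of Crtc1 are given 5′ to 3′ on the gene's strand, at chr9:86743383-86743632 (plus strand), chr13:94057546-94057795 (plus strand) and chr8:70439574-70439823 (minus strand). Capitals mark matches on either strand to GCGTG, the core bound by the aryl hydrocarbon receptor with ARNT, which responds to compounds of tobacco smoke, or to TGACG, the short core of the cAMP response element.
Prss35: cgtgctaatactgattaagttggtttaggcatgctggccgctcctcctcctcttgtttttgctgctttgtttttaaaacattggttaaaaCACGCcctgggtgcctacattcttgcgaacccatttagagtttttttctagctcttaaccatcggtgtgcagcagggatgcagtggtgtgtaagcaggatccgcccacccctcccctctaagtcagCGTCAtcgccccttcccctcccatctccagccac
Lhfpl2: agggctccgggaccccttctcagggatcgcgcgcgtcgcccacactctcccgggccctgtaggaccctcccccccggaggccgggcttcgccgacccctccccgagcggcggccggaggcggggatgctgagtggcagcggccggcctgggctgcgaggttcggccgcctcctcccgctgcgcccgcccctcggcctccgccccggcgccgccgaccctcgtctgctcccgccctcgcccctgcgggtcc
Crtc1: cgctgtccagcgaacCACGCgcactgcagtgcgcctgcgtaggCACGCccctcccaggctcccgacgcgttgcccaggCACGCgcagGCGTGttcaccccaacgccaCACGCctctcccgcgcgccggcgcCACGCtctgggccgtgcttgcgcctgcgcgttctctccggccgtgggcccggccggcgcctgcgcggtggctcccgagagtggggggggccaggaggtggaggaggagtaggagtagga
The Prss35 window held 1 match to each motif, the Lhfpl2 window 0 of either and the Crtc1 window 6 matches to GCGTG and 0 to TGACG. Matches of the different motifs did not overlap in these windows. The bases G and C made up 50.8% of the Prss35 window, 80.0% of that of Lhfpl2 and 74.8% of that of Crtc1, where the median over all promoters was 52.4%. Across 32851 RefSeq promoter entries of the same length, 28.2% held at least 1 GCGTG, 0.107% held 6 or more, and 17.8% held TGACG. Among the 9 entries of the 6 genes, some of which have several start sites, 5 held GCGTG and 5 held TGACG. The Crtc1 entry held the most matches to GCGTG of the 9. No share over promoters of a like G and C content was taken, so nothing is read from its number of matches. A match describes the letters only, and binding was not measured.

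RNA quality measures differed among the smoke lungs. The ratio of the 3′ to the 5′ actin control probe sets, which grows as RNA is shortened, was 31.6 and 29.4 on smoke arrays 1 and 2, 9.26 and 10.3 on arrays 3 and 4, and 2.18 and 2.98 on arrays 5 and 6. On the control arrays it was 9.7, 10.4, 9.28 and 3.96. The same ratio for Gapdh was 4.76 and 9.16 on smoke arrays 1 and 2, 5.94 and 3.68 on 3 and 4, and 1.4 and 2.13 on 5 and 6. Controls ran from 4.82 to 5.89 for Gapdh, so by this measure smoke array 2 was raised and smoke array 1 was not. Xist, the RNA made from the inactive X chromosome, was near 14 on the log2 scale on smoke arrays 5 and 6 (14.09 and 14.01) and on control arrays 2 and 4 (13.96 and 13.98), and 8.25 to 9.38 on the other arrays, on which the Y-linked genes Kdm5d and Eif2s3y were high. Smoke arrays 5 and 6 thus had both high Xist and the lowest actin ratios, and the 2 properties cannot be told apart among the smoke lungs. Alveolar type 2 markers, which define lung, were at a mean of 12.18 to 13.21 on all arrays (4 of 5 listed were measured). Of 5 neutrophil markers, 3 were called lower in smoke by limma (list means of 9.20 to 9.77, against 10.37 to 10.94 in controls), and their part in the members' differences was not tested. Results are also given without smoke arrays 1 and 2, and without 5 and 6.

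All values below are log2 intensities after quantile normalization, and differences are smoke minus control with the standard error of the fit. For each gene the probe set with the highest mean comes first. The members' differences ranged from 0.47 to 1.73, against a median of 0.06 over all 13381 genes tested, of which 0.972% differed by 1 or more. In 6 of the 9 genes every smoke array lay above every control array, against 1.97% of all genes; without smoke arrays 1 and 2 this was so in 9 of 9, against 3.83%. At an adjusted p under 0.05 (limma), 1 of the 9 was called higher with all arrays (Prss35; 0.0224% of all genes), 5 without smoke arrays 1 and 2 (Cdh11, Grb10, Sh3pxd2a, Kdelr3 and Arhgef7; 0.0747%) and 5 without arrays 5 and 6 (Prss35, Lhfpl2, Crtc1, Med8 and Kdelr3; 3.12%). Since these contrasts, or arrays that they share, chose the genes, nothing is read from those shares. Kdelr3 was the 1 member called under both omissions. With 1 array left out, 0 of the 9 were called in 6 of 10 cases (without control 2, 3 or 4 or smoke 2, 3 or 4). In those 6 cases, 1 or 2 of all genes were called higher. With array weights 8 of the 9 were called, where 41 of all 13381 genes were called higher. With the actin ratio as a covariate these counts were 7 and 151. Nothing is read from these counts either, as the same contrast chose the genes.

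**Figure D1:**
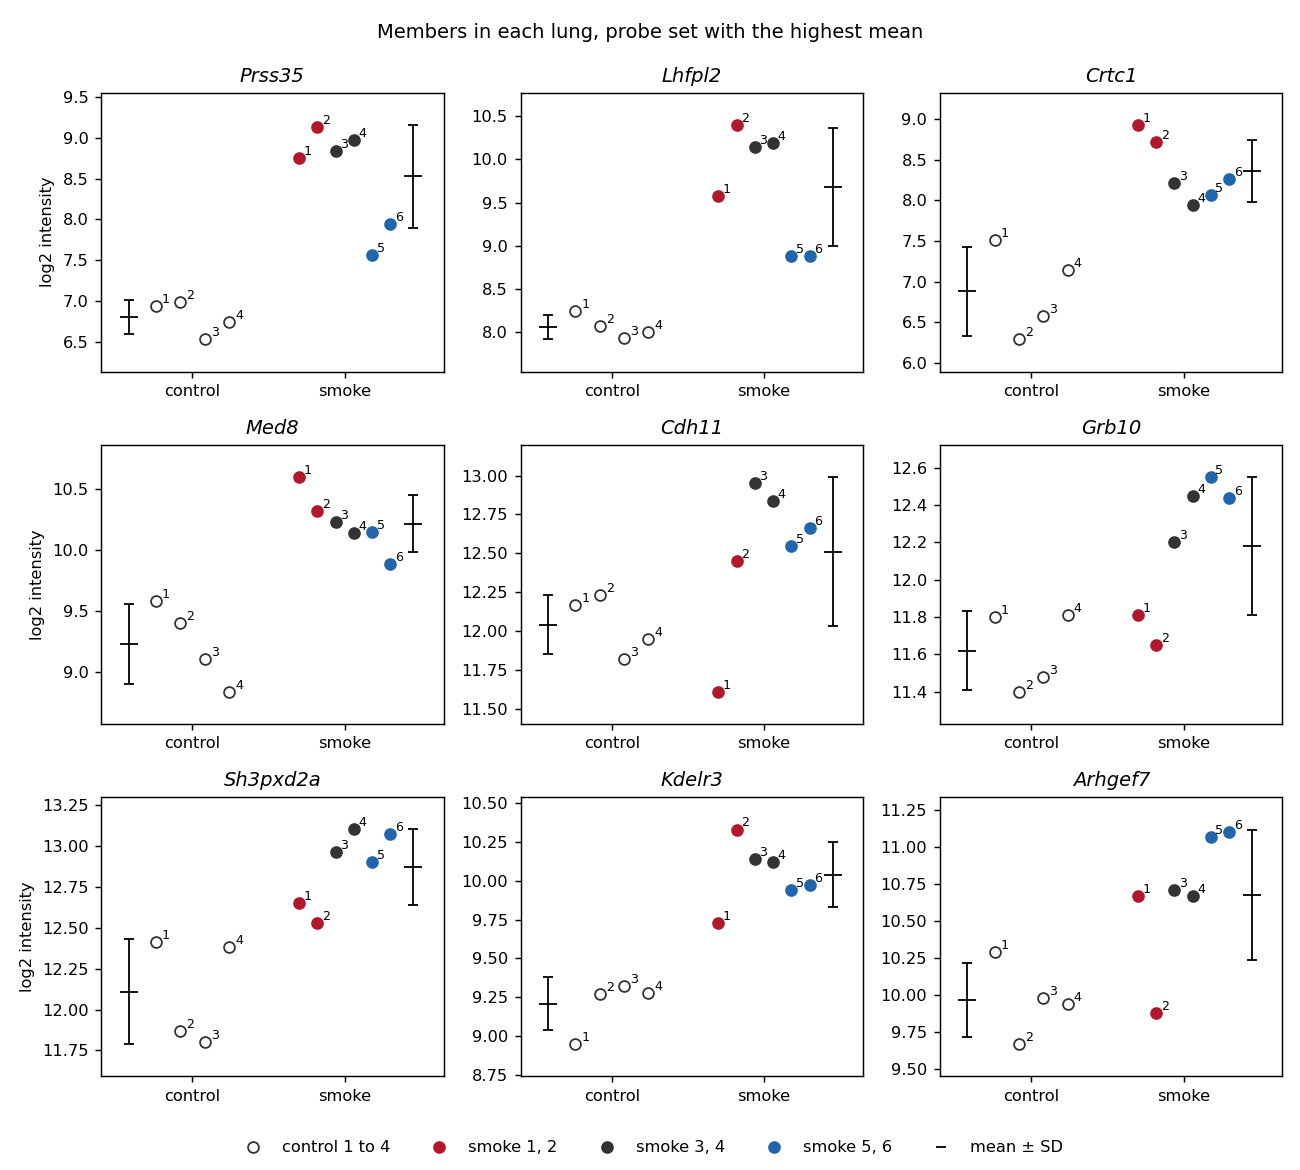
Log2 intensity (vertical axis) of each member's probe set with the highest mean in every lung, with controls as open circles, smoke arrays coloured in pairs, array numbers beside the points and bars for the group mean ± SD (4 control, 6 smoke). Prss35 and Lhfpl2 are highest on smoke arrays 1 to 4, while Grb10 and Arhgef7 have a smoke array 1 or 2 among the control points.

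Prss35 and Lhfpl2 had the largest differences of the 9 and a similar pattern over the lungs, with smoke lungs 1 to 4 above smoke lungs 5 and 6, and these above the controls. Prss35 (probe set 1434195_at, its only one) was 6.94, 6.99, 6.53 and 6.74 in the 4 control lungs. In smoke lungs 1 to 6 it was 8.75, 9.13, 8.84, 8.97, 7.56 and 7.94. The groups did not overlap, and smoke lungs 5 and 6 stood between the controls and the other 4 smoke lungs. The group means were 6.80 ± 0.21 (SD, n = 4) and 8.53 ± 0.63 (SD, n = 6), a difference of 1.73 ± 0.32 (SE), or 3.32-fold. In the deposited linear intensities, Prss35 ran from 91.4 to 128 in controls and from 174 to 533 in smoke lungs. The difference was 1.53 ± 0.32 without smoke arrays 1 and 2 and 2.12 ± 0.22 without arrays 5 and 6.

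Lhfpl2, measured by 1434129_s_at, was 8.25, 8.08, 7.93 and 8.0 in controls. In smoke lungs 1 to 6 it was 9.58, 10.40, 10.15, 10.19, 8.88 and 8.88. As for Prss35, the groups did not overlap and smoke lungs 5 and 6 were the lowest of their group. The difference was 1.61 ± 0.32, or 3.06-fold, and it was 1.46 without smoke arrays 1 and 2 and 2.01 without arrays 5 and 6. The correlation between Prss35 and Lhfpl2 over the 10 arrays was 0.98, the highest among the 36 pairs of members, and 0.94 after each group's mean was removed. These values share the arrays, their RNA quality and their normalization.

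With the first probe set of each gene, the control lungs with high Xist (2 and 4) were near the other controls. Control lungs 2 and 4 averaged 6.87 for Prss35 and control lungs 1 and 3 averaged 6.73. For Lhfpl2 these means were 8.04 and 8.09. Both differences are within the spread of the 4 controls. With another probe set of Lhfpl2, 1443185_at, control lungs 2 and 4 were lower than 1 and 3 (6.75 and 7.38). Smoke lungs 5 and 6 (6.97 and 7.12) were likewise the lowest of the smoke lungs there. For 1454847_at the control means were 7.88 and 7.60, and for 1434130_at 7.00 and 7.16. The part of sex or RNA quality in the smoke pattern was not tested.

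Other probe sets of Lhfpl2 gave smaller differences. Probe set 1454847_at was 7.46, 7.82, 7.75 and 7.94 in controls and 8.23, 9.35, 8.77, 8.66, 8.04 and 8.04 in smoke lungs. The groups were apart, and the difference was 0.77 ± 0.27. For 1443185_at the difference was 0.78 ± 0.36 and for 1434130_at 0.52 ± 0.34, each with 4 of 6 smoke arrays above every control. Without smoke arrays 5 and 6, 1443185_at differed by 1.17. The first probe set correlated at 0.91 with 1454847_at, 0.76 with 1443185_at and 0.50 with 1434130_at over 10 arrays. In the platform annotation 3 of the 4, all but 1443185_at, carry the same sequence record, and these 3 differed by 1.61, 0.77 and 0.52. The suffix _s_at marks a probe set whose probes can match several transcripts.

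**Figure D2:**
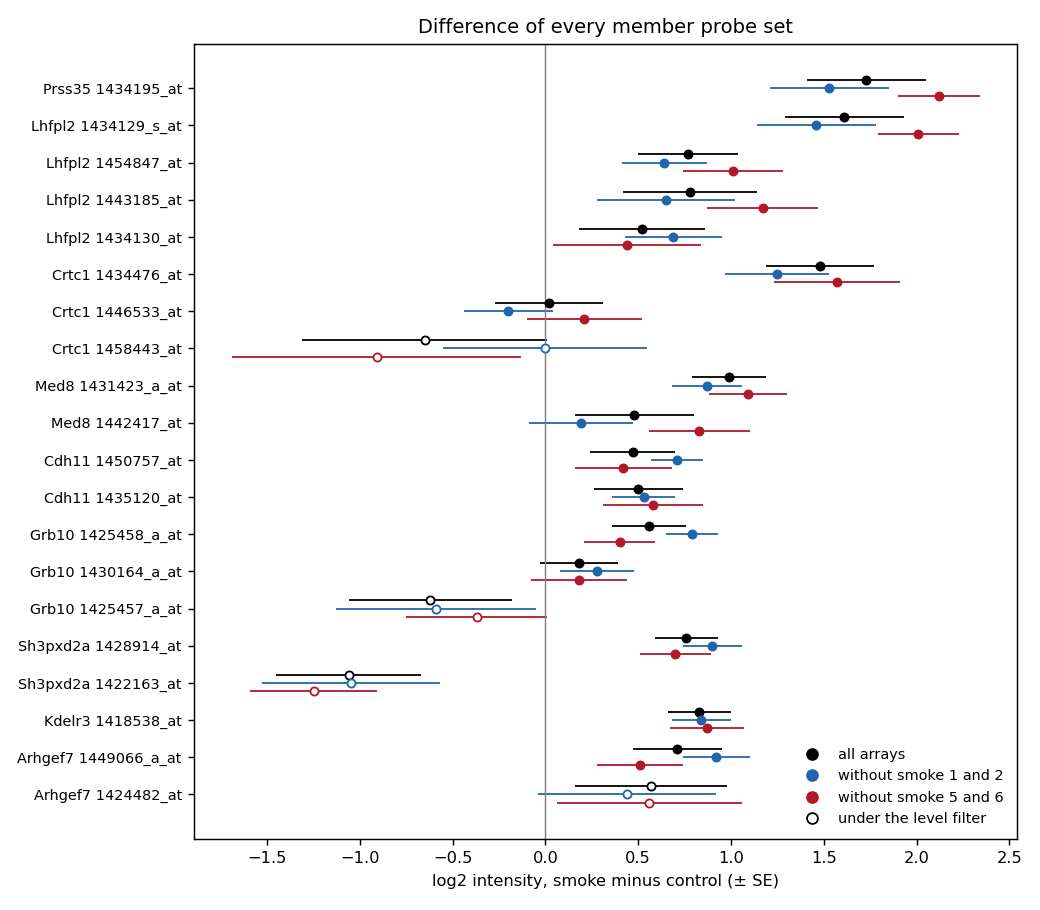
Log2 difference, smoke minus control, with SE (horizontal axis) for all 20 probe sets, in black with all arrays, in blue without smoke arrays 1 and 2 and in red without smoke arrays 5 and 6; open symbols did not pass the filter on dim probe sets. Of the 20 probe sets, 17 lie to the right of 0 with all arrays, and the 3 on the left did not pass the filter.

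Over the whole set, 17 of the 20 probe sets had a higher mean in smoke. Groups were apart in 7 of the 16 that passed the filter, against 1.54% of all probe sets tested. Of the 9 genes, 7 had several probe sets, giving 16 pairs within a gene. The correlation over 10 arrays ran from -0.49 to 0.91 within those pairs, was above 0.5 in 6 and below 0 in 5. Of the 5 negative values, 4 involved a probe set that did not pass the filter, and the other was -0.02 between 1443185_at and 1434130_at of Lhfpl2.

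Among the nuclear proteins, Crtc1 had 3 probe sets that disagreed. With 1434476_at it was 7.51, 6.29, 6.58 and 7.14 in controls. In smoke lungs 1 to 6 it was 8.93, 8.72, 8.22, 7.95, 8.07 and 8.27. The groups did not overlap, smoke lungs 1 and 2 were the highest, and the controls were spread over more than 1 log2 unit. The difference was 1.48 ± 0.29, or 2.79-fold, and it was 1.25 without smoke arrays 1 and 2 and 1.57 without arrays 5 and 6. The control mean was at percentile 44.2 of all probe sets, also near the cut of the filter.

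Probe set 1446533_at of Crtc1 gave 7.31, 7.40, 7.57 and 6.83 in controls and 7.36, 8.14, 7.38, 7.07, 7.00 and 6.85 in smoke lungs. These groups overlapped almost fully, with a difference of 0.02 ± 0.29 that was -0.20 without smoke arrays 1 and 2. It correlated with 1434476_at at 0.12. The third probe set, 1458443_at, did not pass the filter and differed by -0.65 ± 0.66. That value was -1.23 without control array 2, -0.30 without smoke array 1 and 0.00 without smoke arrays 1 and 2. The higher level of Crtc1 thus rests on 1 of its 3 probe sets, and with the median over its tested probe sets the difference was 0.75. The positions of the probes along the transcripts were not used here.

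Med8, measured by 1431423_a_at, was 9.58, 9.40, 9.11 and 8.84 in controls and 10.60, 10.32, 10.23, 10.14, 10.15 and 9.89 in smoke lungs. The lowest smoke lung, number 6, lay above the highest control. The difference was 0.99 ± 0.20, or 1.98-fold, and was 0.87 without smoke arrays 1 and 2 and 1.09 without arrays 5 and 6. The second probe set, 1442417_at, was above every control on 4 of 6 smoke arrays, with a difference of 0.48 ± 0.32, or 0.19 without smoke arrays 1 and 2 and 0.83 without arrays 5 and 6. Its smoke lungs 1 to 3 were the highest (9.14, 9.08 and 8.96) and smoke lungs 5 and 6 (7.96 and 7.70) lay within the controls, which ran from 7.54 to 8.28.

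Kdelr3, with the 1 probe set 1418538_at, differed from the controls by nearly the same amount in each pair of smoke lungs. It was 8.95, 9.27, 9.32 and 9.28 in controls. In smoke lungs 1 to 6 it was 9.73, 10.33, 10.14, 10.12, 9.94 and 9.97. The groups did not overlap. The difference was 0.83 ± 0.17, or 1.78-fold, and it was 0.84 without smoke arrays 1 and 2 and 0.87 without arrays 5 and 6.

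**Figure D3:**
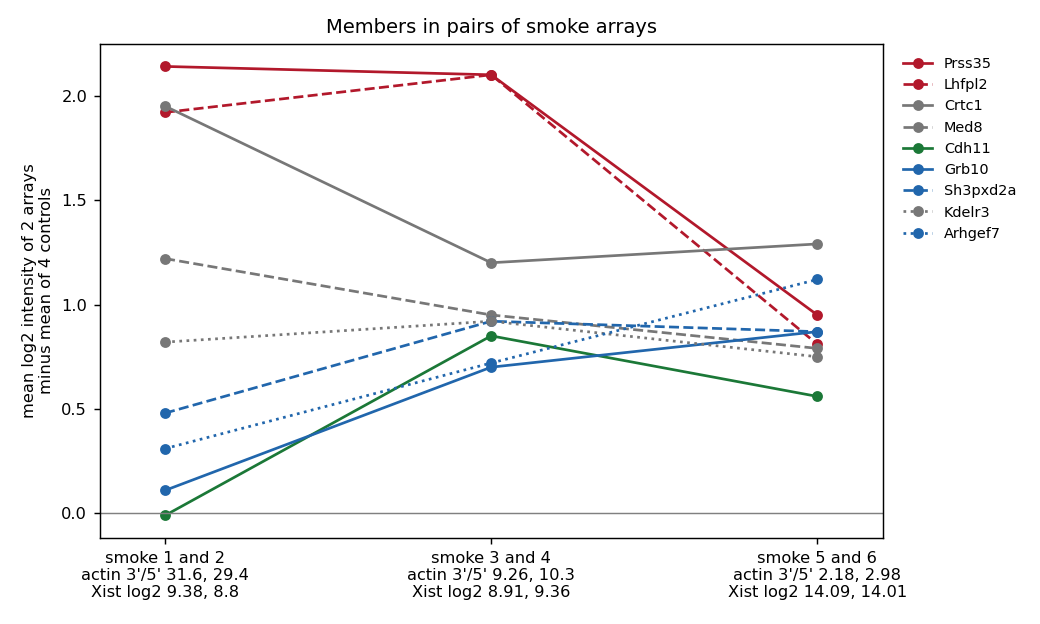
Mean log2 intensity of each pair of smoke arrays minus the mean of the 4 controls (vertical axis) for the probe set with the highest mean of each gene, with the actin 3′ to 5′ ratio and the Xist level of both arrays under each pair. Prss35 and Lhfpl2 are 2.10 to 2.14 and 1.92 to 2.10 above the controls in the first pairs and 0.95 and 0.81 in the last, Crtc1, Med8 and Kdelr3 stay above 0.7 in every pair, and Grb10, Arhgef7 and Sh3pxd2a are lowest in the first pair.

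Grb10, Sh3pxd2a and Arhgef7 had a different order of smoke lungs from Prss35 and Lhfpl2. Grb10, measured by 1425458_a_at, was 11.80, 11.40, 11.48 and 11.81 in controls. In smoke lungs 1 to 6 it was 11.81, 11.65, 12.20, 12.45, 12.55 and 12.44. Smoke lungs 1 and 2 lay at or within the controls, and lungs 3 to 6 above them. The difference was 0.56 ± 0.20, or 1.47-fold. It was 0.79 without smoke arrays 1 and 2, and 0.40 without arrays 5 and 6, where 2 of the 4 smoke lungs lay above every control.

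Arhgef7, measured by 1449066_a_at, was 10.29, 9.67, 9.98 and 9.94 in controls and 10.67, 9.88, 10.71, 10.67, 11.07 and 11.10 in smoke lungs. Smoke lung 2 lay among the controls and the other 5 above them, with lungs 5 and 6 the highest. The difference was 0.71 ± 0.24, or 1.64-fold, and it was 0.92 without smoke arrays 1 and 2 and 0.51 without arrays 5 and 6. Sh3pxd2a, measured by 1428914_at, was 12.41, 11.87, 11.80 and 12.38 in controls and 12.65, 12.53, 12.96, 13.10, 12.90 and 13.07 in smoke lungs. Its groups did not overlap, but smoke lungs 1 and 2 were the lowest of the 6. The difference was 0.76 ± 0.17, or 1.69-fold, and it was 0.90 without smoke arrays 1 and 2 and 0.70 without arrays 5 and 6.

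After group means were removed, the 3 pairs among Grb10, Sh3pxd2a and Arhgef7 correlated at 0.64 to 0.85. The 6 pairs of one of these with Prss35 or Lhfpl2 correlated at -0.71 to -0.15. Relative to the 4 controls, Arhgef7 was 0.31 higher in smoke lungs 1 and 2, 0.72 in 3 and 4 and 1.12 in 5 and 6. For Prss35 the same 3 values were 2.14, 2.10 and 0.95. In both genes the pair means ran in the order of the actin ratio. For Grb10 they were 0.11, 0.70 and 0.87, in that order as well. For Lhfpl2 (1.92, 2.10 and 0.81) and Sh3pxd2a (0.48, 0.92 and 0.87) they did not keep it. Single lungs did not all keep the order either. Arhgef7 was 10.67 in smoke lung 1, near lungs 3 and 4 (10.71 and 10.67), and 9.88 in lung 2. Prss35 in smoke lung 1 (8.75) was the lowest of lungs 1 to 4. The last pair also had high Xist, and the part of the actin ratio or Xist was not tested.

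Some marker lists of other cell types rose from the first to the last pair of smoke lungs, as Grb10 and Arhgef7 did. The mean of 5 endothelial markers was 11.11 and 10.90 on smoke arrays 1 and 2, 11.94 and 11.79 on 3 and 4 and 12.29 on both 5 and 6, with controls at 11.72 to 12.21. Likewise, the mean of 5 heart muscle markers was 8.15 and 8.30 on smoke arrays 1 and 2, 8.16 and 8.95 on 3 and 4, and 10.14 and 9.59 on 5 and 6, with controls at 8.74 to 9.73. The mean of 7 markers of smooth muscle and pericytes was 9.03 to 10.23 in smoke lungs, highest on arrays 5 and 6. None of the markers in these 3 lists was called in either direction by limma, all passed the filter, and their part in the members' order was not tested. The endothelial mean was below the controls on smoke arrays 1 and 2. Arhgef7 was above the controls on array 1 (10.67) and among them on array 2 (9.88). Among the smoke arrays, means of further lists, such as macrophages and fibroblasts, were also highest on arrays 5 and 6. The macrophage mean was 9.19 and 9.15 there, with controls at 8.93 to 9.39. For fibroblasts it was 11.80 and 11.63, with controls at 11.35 to 11.70. Among the smoke arrays the red cell mean was highest on 1 and 2 (10.82 and 10.14), with controls at 9.24 to 10.32.

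Further probe sets of these 3 genes gave smaller or opposite values. The second probe set of Grb10, 1430164_a_at, differed by 0.18 ± 0.21 with 1 of 6 smoke arrays above every control. The other, 1425457_a_at, did not pass the filter and differed by -0.62 ± 0.44, or -0.33 without smoke array 5. The platform annotation gives it the same sequence record as 1425458_a_at. Sh3pxd2a 1422163_at, also under the filter, was 6.49, 6.41, 5.13 and 6.35 in controls and 4.93, 5.12, 4.58, 4.73, 6.25 and 4.60 in smoke lungs. Its difference was -1.06 ± 0.39, in the opposite direction to 1428914_at, with the groups overlapping through control lung 3 and smoke lung 5. Arhgef7 1424482_at, under the filter as well, differed by 0.57 ± 0.41, and by 0.11 without control array 4, which was at the floor.

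Cdh11 was separated from the controls in 5 of 6 smoke lungs. With 1450757_at it was 12.17, 12.23, 11.82 and 11.95 in controls. In smoke lungs 1 to 6 it was 11.61, 12.45, 12.95, 12.84, 12.55 and 12.66. Smoke lung 1 lay below every control and the other 5 above every control. The difference was 0.47 ± 0.23, or 1.38-fold, 0.65 without smoke array 1, 0.71 without arrays 1 and 2 and 0.42 without arrays 5 and 6.

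The second probe set of Cdh11, 1435120_at, also had smoke lung 1, at 9.40, below the controls (9.50 to 9.81) and the other 5 above them, at 9.94 to 10.71. The order of those 5 differed, with smoke lung 2 the highest here and the lowest of the 5 with 1450757_at. Its difference was 0.50 ± 0.24, and the probe sets correlated at 0.81, or 0.73 after group means were removed. The mean of 8 fibroblast markers was 10.89 in smoke lung 1 and 11.29 in smoke lung 2, both below the controls (11.35 to 11.70). It was 11.37 to 11.80 in smoke lungs 3 to 6. With both probe sets, Cdh11 lay below every control in smoke lung 1 and above every control in smoke lung 2. All 8 markers passed the filter, 0 were called by limma, and their part in the Cdh11 values was not tested.

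The genes whose levels followed each member most closely over the 10 arrays were ranked by Pearson correlation among 21574 to 21577 probe sets of other named genes. With so many candidates and 10 arrays this is a ranking only, and the arrays share group and RNA quality. For Prss35 the closest were Lhfpl2 (0.984), Tmem178 (0.976) and the transcription factor Sox11 (0.969), and for Lhfpl2, after Prss35, Plcxd2 (0.977) and the non-muscle myosin heavy chain Myh10 (0.973). After group means were removed, Tmem178 still correlated with Prss35 at 0.97 and Sox11 at 0.85. Crtc1 was followed by Luc7l3 (0.964), Pik3r3 (0.959) and Fgfr4 (0.956), and Med8 by the kinase Camk4 (0.966), Usp48 (0.953) and Mest (0.952).

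Cdh11 was followed most closely by the growth factor midkine, Mdk (0.938), Aars (0.921) and the collagen VI chain Col6a3 (0.917). For Kdelr3 the list was Pfn2 (0.949), Vma21 (0.937) and Cthrc1 (0.929). Grb10 was followed by Tpgs2 (0.958), the COPI coat subunit Copz1 (0.952) and the growth hormone receptor Ghr (0.942). Sh3pxd2a was followed by Arhgef17 (0.963), Lancl1 (0.955) and gamma-actin, Actg1 (0.950), and Arhgef7 by Lrrc8d (0.929), Sema6d (0.916) and Prr14l (0.916). After group means were removed, the 3 followers of Kdelr3 correlated at 0.62 to 0.76 and those of Grb10 at 0.89 to 0.93.

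Relatives and partners of the 9 genes were read from 12 lists. Of 183 listed genes, 166 had a tested probe set, and 0 were called higher and 0 lower by limma at an adjusted p under 0.05, against 0.0224% and 0.702% of all genes. At an unadjusted p under 0.05, 12 were higher (7.23%, against 5.75% of all genes) and 7 lower (4.22%, against 4.47%). With all arrays, every smoke array lay above every control array in 7 of the 166, against 1.97% of all genes. Those named below are Cdh4, Crtc3, Mest, Peg3, Kdelr1 and Adam12. In 3 of the 166 (Hsp90b1, Med13l and F3) every smoke array lay below, for which the share of all genes was not counted. Without smoke arrays 1 and 2, 0 were called higher and 1 lower (against 0.859% of all genes). That gene was the secreted protease Prss23, on a probe set that can cross-hybridise (1437671_x_at), with -0.89 (limma adjusted p = 0.025), and with all arrays it differed by -0.64 ± 0.22 (limma adjusted p = 0.356). Without smoke arrays 5 and 6, 11 of the 166 were called higher and 2 lower, or 6.63% and 1.20%, against 3.12% and 2.42% of all genes.

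**Figure D4:**
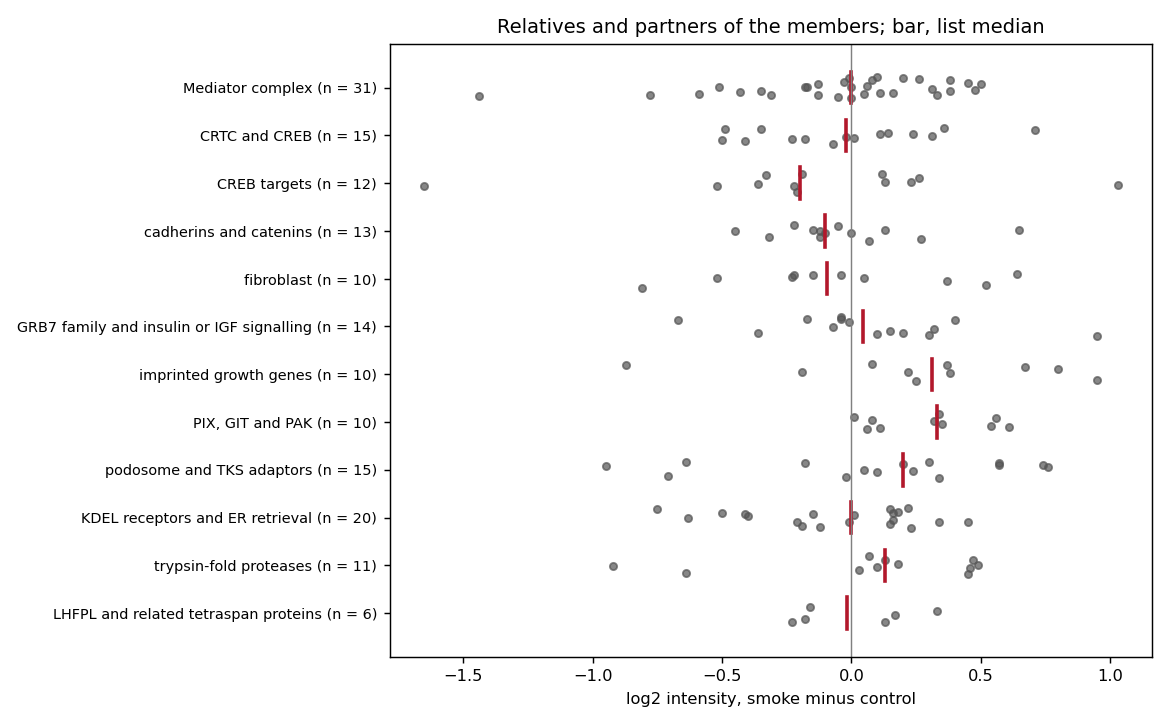
Log2 difference, smoke minus control (horizontal axis), of each tested gene in the 12 lists of relatives and partners; each point is 1 gene and the bar is the list median. List medians lie between -0.20 and 0.33, and single genes between -1.65 and 1.03.

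None of the paralogues of the members named below was called with all arrays. The other KDEL receptors, Kdelr1 and Kdelr2, differed by 0.34 ± 0.15 and 0.18 ± 0.19. The list of KDEL receptors and retrieval cargo had a median of 0.00 over 20 tested genes, and its smallest p-values were those of the chaperones Hsp90b1 (-0.41 ± 0.15, limma adjusted p = 0.392, all 6 smoke lungs below every control) and Calr (-0.50 ± 0.19, limma adjusted p = 0.406). Both carry the retrieval signal that KDEL receptors bind. Without smoke arrays 5 and 6, the disulfide isomerase Pdia3 was called lower (-1.67, limma adjusted p = 0.0209), where with all arrays it was -0.75 ± 0.66 and without arrays 1 and 2 it was -0.08.

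For the coactivator Crtc1, the relatives Crtc2 and Crtc3 differed by 0.01 ± 0.22 and 0.36 ± 0.17. The catalytic subunit of protein kinase A, Prkaca, was 0.71 ± 0.34 with all arrays (limma adjusted p = 0.518) and was called higher without smoke arrays 5 and 6 (1.13, limma adjusted p = 0.0253), but not without arrays 1 and 2 (0.34, limma adjusted p = 0.715). Of 12 tested CREB targets, the median was -0.20, with Nr4a3 at -1.65 ± 0.60 and the phosphatase Dusp1 at -0.33 ± 0.18, neither called. Without arrays 5 and 6, Nr4a1 (1.86, limma adjusted p = 0.014), Nr4a2 (0.96, limma adjusted p = 0.0426) and Rgs2 (0.82, limma adjusted p = 0.032) were called higher. Without arrays 1 and 2 these 3 genes differed by 0.36, -0.21 and -0.05, and none was called.

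The other subunits of Mediator had a median of 0.00 over 31 tested genes, with 16 of higher and 15 of lower mean. The smallest p-values were those of the kinase subunit Cdk8 (0.45) and of Med13l (-1.44, or -0.67 without smoke arrays 1 and 2), neither called. The 31 differences ran from -1.44 to 0.50, beside 0.99 for Med8.

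For Arhgef7, all 10 tested genes of the PIX, GIT and PAK list had a higher mean in smoke, as did 7617 of all 13381 genes. The list median was 0.33 against 0.06 over all genes, and 0 were called. With the values as deposited 9 of 10 were higher (8029 of all 13372) and with median centring 8 of 10 (6781 of all 13371). The list medians were then 0.27 and 0.19, against 0.09 and 0.01 over all genes. The list was led by paxillin, Pxn (0.56 ± 0.22), and Git2 (0.54 ± 0.21), and the closest relative, Arhgef6 (alpha-PIX), differed by 0.01 ± 0.15. Of the 15 podosome genes, the median was 0.20, with the metalloproteases Adam12 at 0.57 ± 0.19 and Adam19 at 0.74 ± 0.28, neither called. Sh3pxd2b (TKS4), the paralogue of Sh3pxd2a, was 0.57 ± 0.29 and was called without smoke arrays 5 and 6 (0.93, limma adjusted p = 0.023), as were cortactin, Cttn (0.45, limma adjusted p = 0.0468), and Wasl (0.89, limma adjusted p = 0.0408). With all arrays Cttn and Wasl differed by 0.24 ± 0.18 and 0.34 ± 0.40. Without arrays 1 and 2, Sh3pxd2b, Cttn and Wasl differed by 0.30, 0.06 and 0.07, and none was called.

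For Grb10, the relatives Grb7 and Grb14 differed by -0.17 and -0.01, and the list of insulin and IGF signalling had a median of 0.05 over 14 genes. It was led by the IGF2 receptor Igf2r (0.40 ± 0.18) and the GRB10-binding protein Gigyf2 (-0.67 ± 0.35), neither called. Gigyf2 was -0.39 without smoke array 1 and -0.33 without arrays 1 and 2. Of the list of imprinted growth genes, which include paternally expressed genes, 8 of 10 had a higher mean, beside 7617 of all 13381. The list median was 0.31. Mest came closest to the threshold, at 9.31 ± 0.24 in controls (SD, n = 4) and 10.11 ± 0.10 in smoke lungs (SD, n = 6), with no overlap of the groups and a difference of 0.80 ± 0.16 (limma adjusted p = 0.0672). It was 0.79 without smoke arrays 1 and 2 (limma adjusted p = 0.0681) and 0.85 without arrays 5 and 6 (limma adjusted p = 0.0312). Peg3 differed by 0.38 ± 0.12 (limma adjusted p = 0.329).

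Other cadherins and catenins had a median of -0.10 over 13 tested genes, and 0 were called. Cdh4 differed by 0.65 ± 0.18 (limma adjusted p = 0.204) with no overlap of the groups, and beta-catenin, Ctnnb1, by -0.32 ± 0.15. The fibroblast list had a median of -0.09 over 10 genes, with Tcf21 at 0.52 and Fap at -0.52. Without smoke arrays 5 and 6, Col1a1 was called higher (1.06, limma adjusted p = 0.0467) and Dcn lower (-1.44, limma adjusted p = 0.0489), so that 2 fibroblast genes passed in opposite directions. Without arrays 1 and 2 they differed by 0.27 and -0.23, and neither was called.

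For the secreted Prss35, 11 tested genes of the trypsin-fold list had a median of 0.13. The smallest p-values were those of tissue factor, F3, a cofactor of coagulation that is itself no protease (-0.92 ± 0.26, limma adjusted p = 0.227, all 6 smoke lungs below every control), and of Prss23. Without smoke arrays 5 and 6, Tmprss2 (0.69, limma adjusted p = 0.0337) and Htra1 (1.06, limma adjusted p = 0.0232) were called higher. Without arrays 1 and 2 they differed by 0.27 and 0.04, and neither was called. The 6 tested relatives of Lhfpl2 had a median of -0.02, with Pmp22 at -0.23 and Emp2 at -0.18, neither called.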

How the data were processed

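The deposited values are linear intensities, 1 for each probe set on each array. How probes were summarised is not given in the sources used here, and detection calls were not used. RNA was extracted with Trizol, per the labels' protocols. Medians ran from 7.01 to 7.70 (log2) over arrays, so the values were log2 transformed and quantile normalized, and a floor of 15.8 (the 10th percentile) was set. Of 45037 probe sets other than controls, the upper 60% by mean were tested (27022). Symbols came from the platform annotation, 0 were updated, and the tested probe set with the highest mean stood for a gene (13381 genes). Differences were fitted with limma 3.58.1 under R 4.3.3 (eBayes with a variance trend, two-sided, Benjamini-Hochberg over tested probe sets). The fit was tested on simulated data.

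The members and the lists of relatives were chosen with earlier results of these data known. Named relatives were the called genes and the 2 of smallest p in each list, plus named paralogues of the members and genes called without smoke arrays 5 and 6, which were chosen after their values were seen. No pair of arrays held identical values, and the correlations between arrays were 0.838 to 0.961. Figures were made with Python 3.11.15 and matplotlib 3.10.9. Alternatives covered normalization, filter, floor, variance trend, array weights, replicate number, Xist, the actin ratio, the choice of probe set and left-out arrays.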

Additional observations from a re-analysis of the deposited data

Results flagged for a closer look

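In 7 of the 40 groups of arrays of the 20 probe sets, the lowest or highest array lay far from the others of its group, by a gap over range above 0.829 for 4 arrays or 0.625 for 6; chance gives about 1 in 20. Among the probe sets with the highest mean, Cdh11 1450757_at was 11.61 on smoke array 1, Arhgef7 1449066_a_at 9.88 on smoke array 2 and Kdelr3 1418538_at 8.95 on control array 1. Among the probe sets under the filter, Crtc1 1458443_at was 4.84 on control array 2, Sh3pxd2a 1422163_at 5.13 on control array 3 and 6.25 on smoke array 5, and Arhgef7 1424482_at 3.98 on control array 4, which is the floor.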

How the results depend on the processing

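The 216 values under 24 alternatives per gene covered its probe set with the highest mean, or the median over its tested probe sets. All 216 were positive, and 214 moved by less than the spread between replicates. The exceptions were Lhfpl2 and Crtc1, at 0.77 and 0.75 with the median over their tested probe sets. The genes were chosen as higher in this contrast, and the filter and variance trend cannot change a difference. The floor settings changed none of these values. For Prss35, Sh3pxd2a, Kdelr3 and Arhgef7, with 1 tested probe set each, the median repeats the first value. The replicate block repeats the values without smoke arrays 5 and 6. Many of the 216 could thus not move, and the signs and the 214 are a description. With all arrays, 3 probe sets under the filter were lower in smoke: Crtc1 1458443_at (-0.65), Grb10 1425457_a_at (-0.62) and Sh3pxd2a 1422163_at (-1.06). The number of genes called higher, 3, was 8 with the values as deposited, 5 with median centring, 7 with no filter, 10 with the upper 40% tested, 5 with a floor at the 25th percentile, 41 with array weights, 6 with Xist and 151 with the actin ratio as a covariate, 10 without smoke arrays 1 and 2 and 418 without arrays 5 and 6. The number lower, 94, was 142 with array weights, 220 with the actin ratio and 324 without smoke arrays 5 and 6. Leaving out 1 array gave 1 (without control 2) to 6 (without smoke 5) higher and 58 (without control 2) to 98 (without smoke 5) lower, and 0 to 0 related genes in either direction. Related genes called higher, 0, were 1 with no filter, 1 with the upper 40%, 1 with array weights, 2 with the actin ratio and 11 without smoke arrays 5 and 6. Related genes called lower, 0, were 1 with array weights, 2 with the actin ratio, 2 without smoke arrays 5 and 6 and 1 without arrays 1 and 2. The causes were not tested.

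Replicate numbers name different mice. Same-numbered arrays correlated at -0.07, 0.17, -0.06 and -0.05 after group means were removed. Differently numbered arrays were not set beside these values, so a batch shared by arrays of the same number was not tested. With the replicate number as a block over arrays 1 to 4, 444 genes were higher and 344 lower, and 13 related genes were higher and 4 lower, where the same arrays without the block gave 418, 324, 11 and 2. Signal over background was not measured for each probe set, so the 4 probe sets under the filter limit what can be said of agreement.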
